A study of Mus musculus with 27 samples.

Results

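The genes of the nuclear pore and of the receptors that carry cargo through it were followed in NMuMG cells, a mouse line from normal mammary epithelium, during the epithelial-to-mesenchymal transition (EMT). They were chosen by name alone, as all symbols of the RNA-seq tables that stand for a numbered Nup gene, Nupl1, Nupl2, Pom121, Ndc1, Tpr, Ranbp2, a Kpna gene, Kpnb1, or a numbered importin (Ipo) or exportin (Xpo) gene. This gave 45 of 24892 symbols, of which 25 encode nucleoporins and 20 encode transport receptors. The rule itself reads names and no measured value.

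RNA-seq was done on parental NMuMG cells, on cells infected with an irrelevant (control) shRNA and on cells infected with an shRNA against lamin B1 (KD). Each kind of cell was untreated (0 h) or treated with TGF-β, at 1 to 5 ng/ml, for 8 or 24 h, with 2 libraries per group. That made 6 parental and 12 shRNA libraries, and all cells grew in medium with serum and insulin. Lamin B1 ChIP-seq on a euchromatin-enriched fraction and ATAC-seq were done in NMuMG cells at the same times, with 1 library each. The cells are a single established line, and the methods call the libraries of a group biological replicates, which are then repeat cultures and not separate animals.

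The nuclear pore complex is a channel through the nuclear envelope. Its scaffold is built of the Y complex and the inner ring, transmembrane nucleoporins anchor it in the membrane, channel nucleoporins with phenylalanine-glycine repeats fill the opening, and filaments and a basket reach into the cytoplasm and the nucleus. Importin α adapters bind a nuclear localization signal and travel with importin β1 (Kpnb1), other importins and exportins bind their cargo directly, and the Ran GTPase sets the direction. TGF-β signals through Smad proteins that have to enter the nucleus, and the pore lies in the envelope beside the lamin B1 meshwork.

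The RNA values were FPKM (fragments mapped to a transcript, scaled by its length and by all mapped fragments), and the number of reads behind a value is unknown. This puts genes and the libraries of a table on 1 scale, but it does not correct for differences in the make-up of a library. The 10 highest genes held 25.03% and 26.14% of the summed FPKM in the untreated parental libraries and 26.15% to 34.13% in the treated ones. In the shRNA table they held 11.4% to 16.9% in the untreated libraries and 17.9% to 40.4% in the treated ones. The share was thus higher in each treated library than in the untreated libraries of its table. Its part in the TGF-β differences was not tested. Steps in the lowest FPKM values placed the libraries at 0.93 to 1.16 times the reads of the first library in the parental table and at 0.79 to 1.12 times in the shRNA table. Neither table names its columns, and they were read in the order in which the deposited descriptions name the libraries. Lmnb1 followed these labels, with 17.9 to 36.5 FPKM in the control libraries and 4.37 to 9.27 FPKM in the KD libraries, which was 27.8%, 24.6% and 32.8% of control at 0, 8 and 24 h. Among epithelial markers of untreated parental cells, Cdh1 was at 113 and 119 FPKM and Krt8 at 2024 and 2031 FPKM, whereas Epcam (0.32 and 0.38 FPKM) and Cldn4 (0.09 and 0.15 FPKM) were near 0. Ptprc, Cd3e, Adipoq and Plin1, which mark leukocytes and adipocytes, were at or near 0. Of the other markers of cells that such a culture could hold, the leukocyte marker Cd68 was at 1.45 and 1.52 FPKM in untreated parental cells and at 1.91 and 1.93 at 24 h, where it was called higher (0.23). The endothelial markers Pecam1, Cdh5 and Kdr were at 0.38 to 0.42, 0.42 to 0.50 and 0.19 to 0.26 FPKM in untreated parental cells and at most 0.00828 FPKM in untreated control shRNA cells. Their part in the results was not tested. In bulk RNA, fewer cells of a kind and less RNA per cell cannot be told apart.

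In untreated parental cells the receptors spanned a wider range of levels than the nucleoporins. Kpna2, an importin α, was highest at 251 and 239 FPKM, followed by its partner Kpnb1 at 146 and 153 FPKM and by Ipo7, an importin that carries Smads and ribosomal proteins, at 104 and 109 FPKM. The libraries of these genes did not overlap. Next came Ipo5 (64.1 and 64.9 FPKM) and Nup85, the highest nucleoporin (64.5 and 59.6 FPKM), which did not differ beyond their spread. The Y complex ranged from 12.8 (Nup160) to 62.1 FPKM (Nup85) as group means, the inner ring from 20.1 to 41.0 FPKM and the central channel from 20.3 to 36.1 FPKM. The lowest nucleoporins were Nupl2 (3.77 and 3.42 FPKM) and the transmembrane protein gene Nup210 (2.04 and 2.35 FPKM). Kpna7, an importin α of the oocyte and early embryo, was listed at 0 in all parental libraries and reached at most 0.00924 FPKM in the shRNA libraries. It was the 1 member that failed the filter of 1 FPKM in 2 libraries, so 44 members were tested in each table.

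The 5 promoters below belong to genes on which the results turn. Ndc1 had the largest difference at 24 h of TGF-β on the log2(FPKM + 1) scale, Kpna2 and Kpna4 moved in opposite directions, and Pom121 and Nup50 were lower in KD cells at each time. Each sequence runs from 250 bases before to 30 bases after the RefSeq start site, 5′ to 3′ on the strand of the gene, and was placed in mm9 by exact match. The Ndc1 stretch lies wholly within the Ndc1 locus of the mm9 annotation used for the peaks, which starts at chr4:107040389. By that annotation it is not upstream of the start of the gene. Capitals mark the CCAAT box, the GC box GGGCGG and the NRF1 sequence TGCGCATGC, on either strand. In mm9 they lie at chr4:107040402-107040681 (Ndc1, plus strand), chr5:135870387-135870666 (Pom121, minus strand), chr15:84753608-84753887 (Nup50, plus strand), chr11:106860810-106861089 (Kpna2, minus strand) and chr3:68930985-68931264 (Kpna4, minus strand).
Ndc1: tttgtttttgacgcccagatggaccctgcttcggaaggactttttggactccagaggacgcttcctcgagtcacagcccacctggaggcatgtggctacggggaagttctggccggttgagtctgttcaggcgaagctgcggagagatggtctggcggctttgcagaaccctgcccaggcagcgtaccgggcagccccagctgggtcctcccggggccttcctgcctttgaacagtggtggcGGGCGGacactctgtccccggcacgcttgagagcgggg
Pom121: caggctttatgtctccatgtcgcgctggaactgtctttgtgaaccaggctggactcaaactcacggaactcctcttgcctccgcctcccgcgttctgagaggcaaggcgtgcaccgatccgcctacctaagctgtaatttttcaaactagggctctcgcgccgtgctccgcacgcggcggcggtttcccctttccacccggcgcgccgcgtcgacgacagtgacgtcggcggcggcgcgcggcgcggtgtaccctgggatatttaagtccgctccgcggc
Nup50: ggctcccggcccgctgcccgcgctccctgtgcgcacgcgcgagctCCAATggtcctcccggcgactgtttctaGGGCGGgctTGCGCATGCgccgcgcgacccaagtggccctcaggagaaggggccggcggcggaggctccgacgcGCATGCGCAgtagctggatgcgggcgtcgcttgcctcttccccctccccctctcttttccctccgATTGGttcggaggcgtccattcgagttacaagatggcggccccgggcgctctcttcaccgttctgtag
Kpna2: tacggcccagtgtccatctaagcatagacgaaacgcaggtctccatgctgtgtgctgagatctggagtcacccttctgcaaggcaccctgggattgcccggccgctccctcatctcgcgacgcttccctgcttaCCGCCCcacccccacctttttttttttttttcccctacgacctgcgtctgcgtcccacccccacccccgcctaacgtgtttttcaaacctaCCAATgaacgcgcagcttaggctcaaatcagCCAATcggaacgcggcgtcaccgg
Kpna4: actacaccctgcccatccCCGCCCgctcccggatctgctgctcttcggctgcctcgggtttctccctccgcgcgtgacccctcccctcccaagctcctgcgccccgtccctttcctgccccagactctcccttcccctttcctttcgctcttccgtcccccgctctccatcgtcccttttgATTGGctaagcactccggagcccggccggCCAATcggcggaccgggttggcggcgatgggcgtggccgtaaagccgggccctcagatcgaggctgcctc

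In parental cells most members had less RNA after 8 h of TGF-β, and more of them after 24 h. Of 44 members, 26 were lower and 1 was higher than at 0 h (limma on log2(FPKM + 1), adjusted p under 0.05 over all genes), where 32.1% of all genes tested were lower and 22.4% higher. The members' median difference was -0.18 on the log2(FPKM + 1) scale and that of all genes -0.05. At 24 h, 28 were lower and 6 higher (37.1% and 33.4% of all genes), with medians of -0.23 for the members and -0.02 for all genes. By 24 h the nucleoporins had a median of -0.38 and the receptors one of -0.13. On this scale the change of a gene near 1 FPKM is understated.

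**Figure D1:**
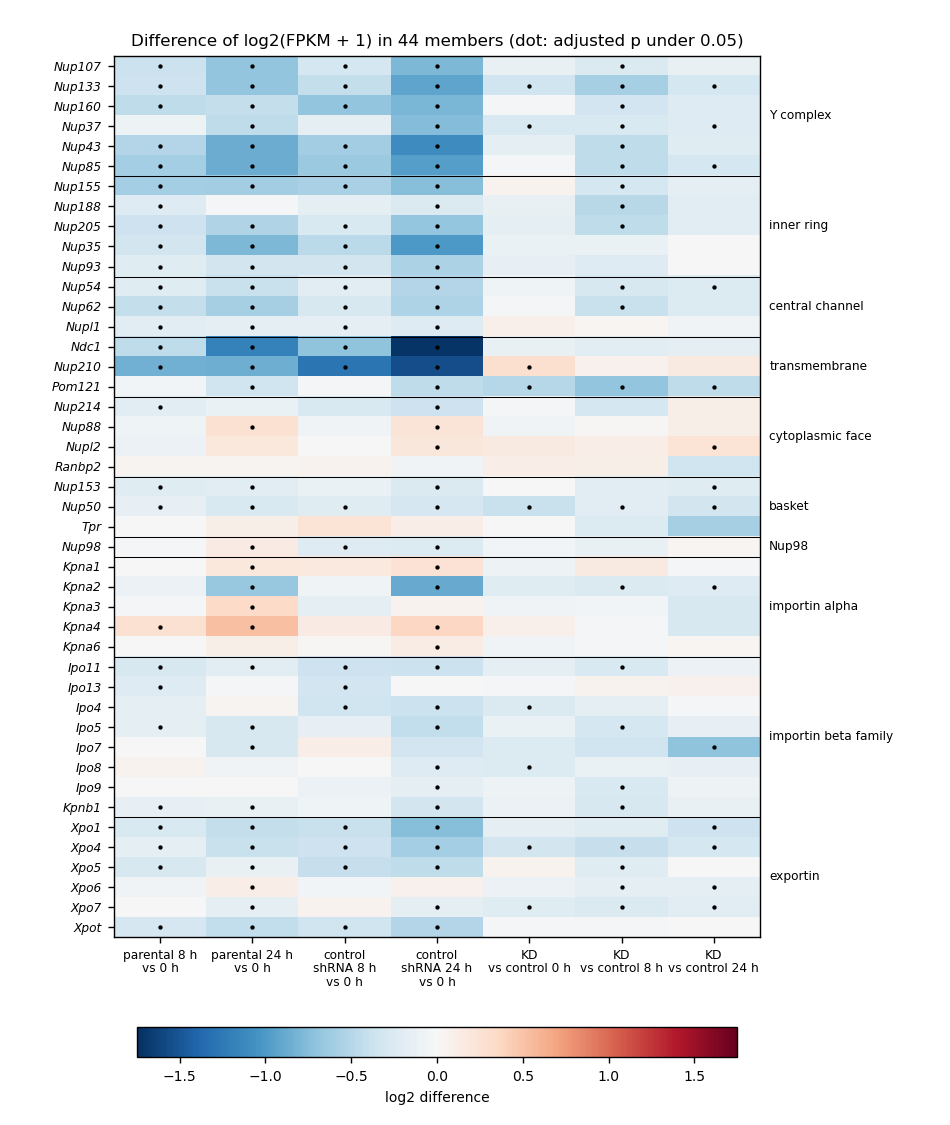
Difference in log2(FPKM + 1) for the 44 tested members (rows, ordered by role) in 7 comparisons (columns), blue for lower and red for higher, with a dot where the adjusted p was under 0.05. The scaffold and transmembrane rows are blue in all 4 TGF-β columns, down to -1.72 for Ndc1, and the importin α rows hold both colours.

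Of the transmembrane nucleoporins Ndc1 and Nup210 were lower at both times and Pom121 at 24 h. Ndc1, which anchors the pore in the membrane and is listed as Tmem48 in the parental table (chr4:107040389-107088951), was at 20.2 and 19.9 FPKM at 0 h, 14.3 and 14.5 at 8 h, and 8.83 and 7.79 at 24 h. The groups did not overlap, and the gene fell by 1.18 at 24 h (SE 0.06, adjusted p = 4.77e-06, limma). Nup210 (chr6:90963062-91066823), whose product is abundant at the pores of only some tissues, went from 2.04 and 2.35 FPKM to 0.741 and 0.838 at 8 h and to 0.716 and 0.810 at 24 h. The 8 and 24 h libraries overlapped, and the differences from 0 h were -0.84 (SE 0.08, adjusted p = 0.000216) and -0.86. In FPKM without the added 1, mean Nup210 was 2.88-fold lower at 24 h and mean Ndc1 2.41-fold lower. Pom121, which takes part in the assembly of new pores in interphase, was not called at 8 h (15.6 and 15.5 FPKM against 14.6 and 15.4) and fell by 0.35 at 24 h (SE 0.06, adjusted p = 0.000959), to 12.5 and 11.4 FPKM.

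The Y complex, the outer scaffold that also binds kinetochores in mitosis, was followed only through the 6 of its genes that the name rule holds. At 8 h 5 of these 6 were lower, and at 24 h all 6, with a median of -0.69. Of its genes outside the rule, Sec13 was higher at both times. Seh1l was lower at 24 h only, and Ahctf1 was lower at both times. Nup85 (chr11:115425748-115445299) was at 64.5 and 59.6 FPKM at 0 h, 40.9 and 40.6 at 8 h, and 34.5 and 32.9 at 24 h. Nup43 (chr10:7387301-7398679) followed the same course, from 29.7 and 27.1 to 19.1 and 19.9 and then to 15.4 and 14.9 FPKM. Both fell by 0.86 at 24 h (SE 0.05, adjusted p = 7.29e-06 for Nup85; SE 0.06, adjusted p = 1.23e-05 for Nup43). Nup160 was at -0.44 at 8 h and -0.42 at 24 h, and Nup37 was called at 24 h only (-0.10 at 8 h, adjusted p = 0.256; -0.45 at 24 h, adjusted p = 0.000712). The summed FPKM of the 6 genes went from 172 and 163 to 121 and 122, and then to 102 and 96.7.

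Of the inner ring, which lines the channel wall, all 5 genes were lower at 8 h and 4 at 24 h. Nup35 fell to -0.79 at 24 h (25.9 and 24.4 FPKM at 0 h, 14.5 and 13.7 at 24 h, SE 0.05, adjusted p = 1.22e-05). Nup155, a scaffold protein that also contacts the membrane, was at -0.60 at 8 h and -0.61 at 24 h. Nup188 was the exception, since it was lower at 8 h (-0.22, adjusted p = 0.00932) and back at 20.4 and 19.2 FPKM at 24 h, beside 19.9 and 20.2 at 0 h. The 3 central channel genes, Nup54, Nup62 and Nupl1, were lower at both times, with Nup62 at -0.58 at 24 h (SE 0.06, adjusted p = 8.63e-05).

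The peripheral nucleoporins behaved differently from gene to gene. Nup88, on the cytoplasmic face, rose at 24 h from 47.8 and 48.0 to 58.9 and 57.2 FPKM (0.27, SE 0.04, adjusted p = 0.000428). Of its neighbours on that face, Nup214 was lower at 8 h only (-0.20, adjusted p = 0.0263), while Ranbp2, a SUMO ligase on the filaments (0.04 at 24 h, adjusted p = 0.575), and Nupl2, an RNA export factor (0.18 at 24 h, adjusted p = 0.0679), were not called. In the basket, Nup50 and Nup153 were lower at both times, with differences of -0.14 to -0.27, and Tpr was not called at either. Nup98, whose gene also encodes the scaffold protein Nup96, was higher at 24 h by 0.15 (SE 0.06, adjusted p = 0.0462), a call that was lost without untreated library a or without either 24 h library (adjusted p 0.123 to 0.233).

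**Figure D2:**
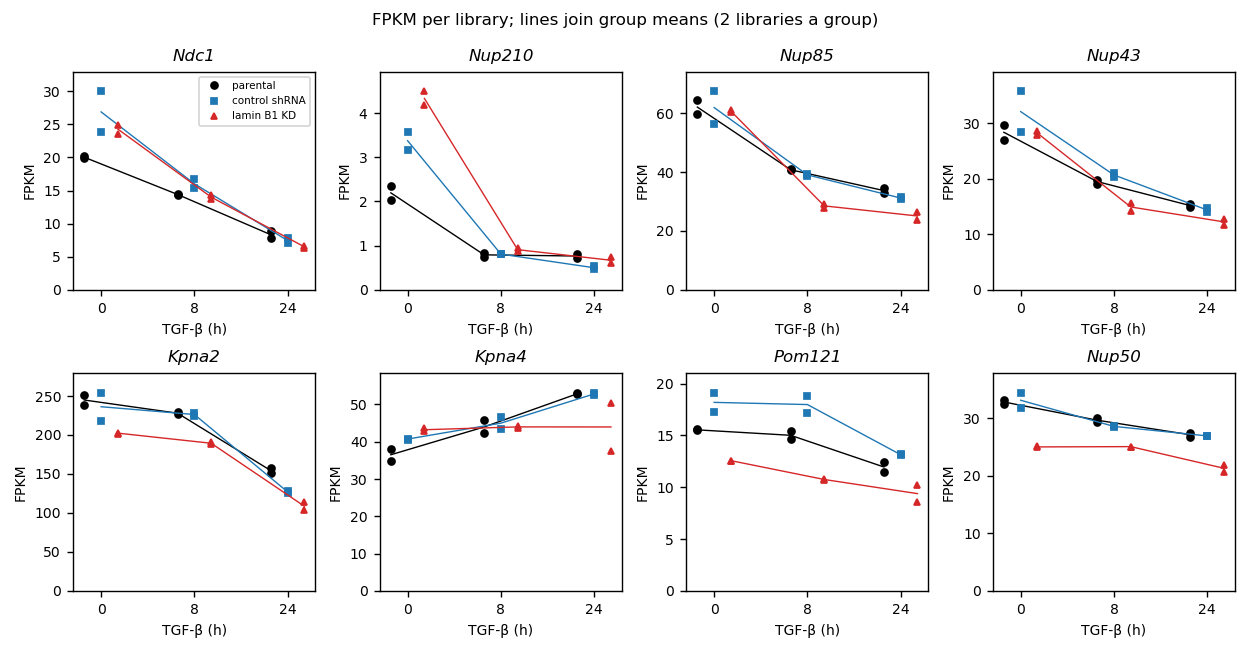
FPKM of 8 members in every RNA-seq library against hours of TGF-β (points, 2 libraries per group; lines join group means) in parental cells (black circles), control shRNA cells (blue squares) and KD cells (red triangles). Ndc1, Nup210, Nup85, Nup43 and Kpna2 end below their untreated levels in all 3 kinds of cell, and the KD points of Pom121 and Nup50 lie under the control points at each time.

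Among the receptors the importin α genes moved apart. Kpna2 (chr11:106849943-106860855) stayed near its level at 8 h (227 and 229 FPKM, -0.10, adjusted p = 0.0744) and then dropped to 157 and 151 FPKM at 24 h, a fall of 0.66 (SE 0.04, adjusted p = 1.07e-05). Kpna4 (chr3:68871071-68931035) was the member that rose at both times, from 35.0 and 38.1 FPKM to 45.7 and 42.2 and then to 53.1 and 52.7 (0.26 and 0.52, adjusted p = 0.00707 and 0.000144). Kpna3, its close paralog, rose at 24 h from 23.1 and 24.0 to 30.4 and 29.5 FPKM (0.34, SE 0.04, adjusted p = 0.000318), and Kpna1 rose by 0.18 (adjusted p = 0.0316). Kpna2 made up 72.9% and 71.2% of the summed importin α FPKM at 0 h and 56.0% and 55.8% at 24 h, and Kpna1, Kpna3 and Kpna4 together went from 22.2% and 23.8% to 37.3% and 37.7%. Reads shared between close paralogs could be split between them by the authors' counting, and how they were treated is not given in the sources used here.

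**Figure D3:**
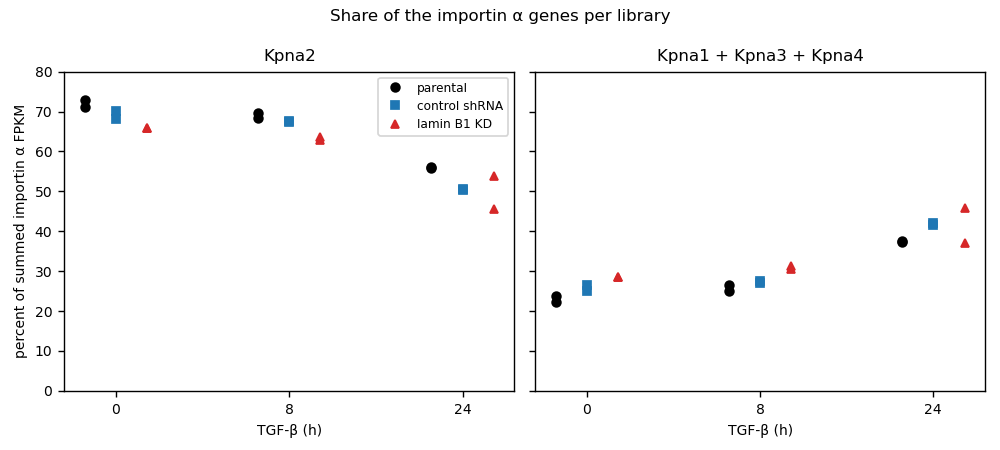
Share of the summed importin α FPKM (percent, vertical axis) held by Kpna2 (left) and by Kpna1, Kpna3 and Kpna4 together (right) in each library against hours of TGF-β, with 2 libraries per group. The Kpna2 share lies between 65.9% and 72.9% in the untreated libraries and between 45.5% and 56.0% in the 24 h libraries.

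The exportins mostly declined. Xpo1, the general exporter of proteins with a leucine-rich signal, went from 52.2 and 53.7 FPKM to 42.9 and 45.0 at 8 h and to 40.4 and 38.0 at 24 h (-0.42, SE 0.05, adjusted p = 0.000172). Xpot, which exports tRNA, fell by 0.44 at 24 h (SE 0.04, adjusted p = 7e-05), and Xpo4, an exporter of Smad3, by 0.39 (SE 0.06, adjusted p = 0.000861). Xpo5, which exports microRNA precursors, was lower at both times (-0.28 and -0.14), and Xpo6, the actin exporter, was higher at 24 h by 0.11 (adjusted p = 0.0482). In the importin β family 4 of 8 genes were lower at each time. Kpnb1 changed by -0.14 and -0.13, Ipo7 was lower at 24 h (-0.29, SE 0.04, adjusted p = 0.000609; 87.5 and 87.2 FPKM), and Ipo8 and Ipo9 were called at neither time.

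The control shRNA cells were a separate experiment with its own untreated libraries. At 8 h 23 members were lower and 0 higher, against 44.9% and 19.4% of all genes, and at 24 h 33 were lower and 5 higher, against 45.1% and 25.5%. The median of all genes was itself -0.14 and -0.13 in these comparisons, beside -0.20 and -0.38 for the members. With quantile normalization, which sets the all-gene medians to -0.02 and -0.0035, 14 members were lower and 4 higher at 8 h (Kpna1, Kpna6, Nupl2 and Xpo7), beside 31.7% and 26.9% of all genes. At 24 h 25 were lower and 7 higher, beside 34.1% and 34.1% of all genes. The members' medians were then -0.09 and -0.25. With no quantile normalization they were -0.27 and -0.47 without untreated replicate 1, and -0.14 and -0.30 without untreated replicate 2. Leaving out untreated replicate 2 gave 17 lower and 1 higher at 8 h, and 27 lower and 6 higher at 24 h.

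Across the 2 experiments 21 members were lower in both at 8 h, which was 21 of the 26 parental and 21 of the 23 control shRNA calls, and 27 were lower in both at 24 h, of 28 and 33. Of the 10843 genes tested in both tables under the same symbol, 28.1% were lower in both at 8 h and 33.5% at 24 h. A set of 20 of 44 members was lower in all 4 TGF-β comparisons, as were 22.0% of these genes: Ndc1, Nup210, 5 Y complex genes (Nup37 missed it), Nup35, Nup93, Nup155, Nup205, the 3 channel genes, Nup50, Ipo11, Xpo1, Xpo4, Xpo5 and Xpot. The overlaps were counted with all libraries and without quantile normalization only. With quantile normalization 14 members were lower in control shRNA cells at 8 h, so the set would be smaller. Kpna1, Kpna4 and Nup88 were higher in both at 24 h, and Nup98 was called in opposite directions (0.15 in parental cells, -0.24 in control shRNA cells, adjusted p = 0.025). The log2 differences of the 44 members correlated across the 2 experiments with r = 0.90 at 8 h and r = 0.95 at 24 h, and those of all these genes with r = 0.77 and r = 0.89. Genes are not independent replicates. In the control shRNA cells Ndc1 went from 23.8 and 29.98 FPKM to 16.7 and 15.4 and then to 7.83 and 7.02 (-1.72 at 24 h, SE 0.10, adjusted p = 6.53e-07). Nup210 went from 3.18 and 3.58 FPKM to 0.812 and 0.801 and then to 0.467 and 0.527 (-1.55, SE 0.07, adjusted p = 1.59e-07). Kpna2 went from 218 and 254 FPKM to 225 and 228 and then to 128 and 126 (-0.89, SE 0.07, adjusted p = 4.04e-06), so that it was called at 24 h and not at 8 h here as well.

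Genes of the same machinery outside the name rule were taken from a list of 26, of which 24 were tested. In parental cells 15 were lower and 2 higher at 8 h, beside 32.1% and 22.4% of all genes. At 24 h 19 were lower and 2 higher, beside 37.1% and 33.4%. Those lower at both times included Ran, its exchange factor Rcc1, its activating protein Rangap1 and Cse1l, which returns importin α to the cytoplasm, while the 2 higher were Sec13, which also coats secretory vesicles, and Tnpo1, an importin for RNA-binding proteins. A list of 15 proliferation genes moved with the members. All 15 were lower at 8 h (median -0.65) and at 24 h (median -1.43) in parental cells. In control shRNA cells 13 and 15 were lower, beside 44.9% and 45.1% of all genes. Of the 5 epithelial markers in parental cells at 24 h, Cdh1 fell to 39.4 and 41.1 FPKM, Krt18 and Cldn4 rose, Krt8 was not called and Epcam did not pass the filter. The part of cell proliferation in the members' differences was not tested.

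**Figure D4:**
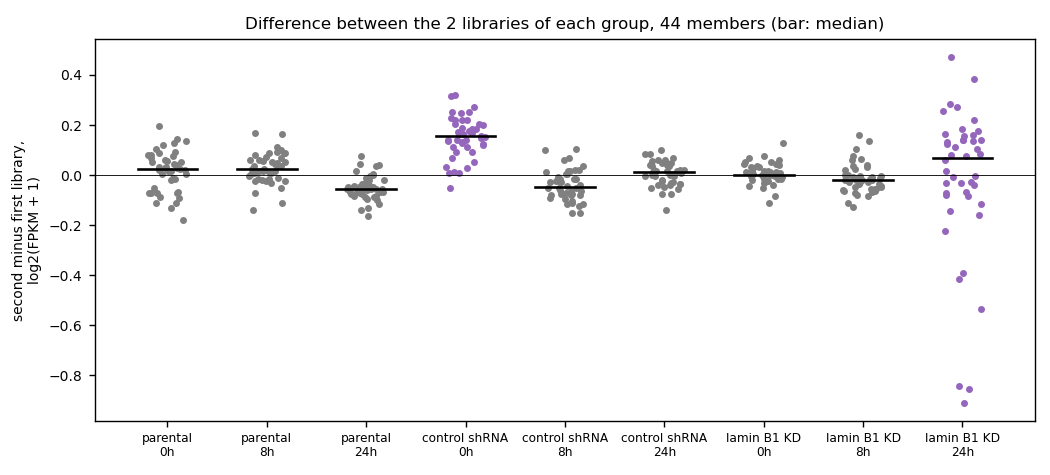
Difference between the 2 libraries of each RNA-seq group (second minus first, log2(FPKM + 1)) for the 44 tested members (points; bar: median). Most groups centre near 0, the untreated control shRNA pair is shifted up to a median of 0.15, and the 24 h KD pair is spread from -0.91 to 0.47.

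Before KD was compared with control, 2 libraries stood apart. In untreated control shRNA cells replicate 2 was above replicate 1 in 43 of 44 members, by a median of 0.15, while 43.6% of all genes were higher in it, and Ipo13 was the lone member that was not. In KD cells at 24 h replicate 2 was far below replicate 1 for Tpr (20.5 against 39.4 FPKM), Ranbp2 (16.3 against 30.3), Ipo7 (43.6 against 79.1), Kpna3 (17.8 against 26.2) and Kpna4 (37.5 against 50.4), and above it for Nup214 (10.4 against 7.21). The counts of called members in the comparisons that use these libraries are given with and without them.

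Lamin B1 KD went with lower RNA of a smaller set of members. In untreated cells 8 were lower and 1 higher in KD than in control, against 9.09% and 10.6% of all genes. At 8 h 22 were lower and 0 higher (16.5% and 19.3% of all genes), and at 24 h 13 were lower and 1 higher (11.5% and 16.8%). The members' medians were -0.10, -0.23 and -0.17 at the 3 times, beside -0.01, 0.01 and 0.02 for all genes. The counts moved with single libraries. Without untreated control replicate 1 or 2 the 0 h count was 16 or 5, and without KD replicate 1 or 2 it was 2 or 3. At 8 h each library left out gave 13 or 14. At 24 h the count was 3 or 2 without a control library and 18 or 11 without KD replicate 1 or 2. When one library is left out, the lone sample of its group is taken to vary as the other groups do. The share of all genes called in each such refit is not given here. These counts therefore cannot be set against it.

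Pom121, Nup50, Nup133, Nup37, Xpo4 and Xpo7 were lower in KD at all 3 times, as were 3.28% of all genes. Without untreated KD replicate 1 the 0 h call was kept for Pom121 and Nup50 and lost for the other members. Pom121 was at 17.3 and 19.1 FPKM in control and 12.6 and 12.6 in KD at 0 h, at 18.8 and 17.2 against 10.8 and 10.7 at 8 h, and at 13.1 and 13.2 against 8.59 and 10.2 at 24 h. KD and control libraries did not overlap at any time, and the differences were -0.50, -0.69 and -0.45 (SE 0.08, adjusted p = 0.00386, 0.000387 and 0.00431). These calls held without each library in turn. Nup133, which tethers the Y complex to curved membrane (chr8:126421023-126473165), showed differences of -0.34, -0.59 and -0.31 (adjusted p = 0.00903, 0.00038 and 0.0101). It was at 11.53 and 11 FPKM in control and 7.26 and 7.09 in KD at 8 h. Nup50, a basket protein that helps release importin cargo (chr15:84753831-84773385), was at 31.8 and 34.4 FPKM in control and 25.1 and 24.9 in KD at 0 h (-0.39, SE 0.05, adjusted p = 0.00095). Its 8 h difference was -0.18 (adjusted p = 0.0148), and was lost without any of the 4 libraries in turn (adjusted p 0.064 to 0.078). Xpo4 differed by -0.32, -0.40 and -0.31, Nup37 by -0.27, -0.26 and -0.22, and Xpo7, an exportin with broad cargo, by -0.21, -0.26 and -0.19.

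All 6 of the Y complex genes held by the name rule were lower in KD at 8 h, where 2 had been at 0 h and 3 were at 24 h. Nup85 was at 38.8 and 39.2 FPKM in control and 27.7 and 29.3 in KD at 8 h (-0.44, SE 0.08, adjusted p = 0.0038), where it had been at 56.4 and 67.4 against 61.1 and 60.3 at 0 h (-0.02, adjusted p = 0.886). Nup188 (-0.49), Nup205 (-0.44) and Nup155 (-0.30) of the inner ring were lower at 8 h and not called at 0 or 24 h. Ndc1 was not called between KD and control at any time (-0.13, -0.18 and -0.17, adjusted p 0.19 to 0.388), and Kpna4, Nup35, Nup88 and Nup98 were among the 15 members called at none of the 3 times. Nup210 was higher in KD at 0 h, at 4.50 and 4.18 against 3.18 and 3.58 FPKM (0.29, SE 0.07, adjusted p = 0.0242). This call was lost without untreated control replicate 1 (adjusted p = 0.0792), without either untreated KD library (adjusted p = 0.155 and 0.072) and with a pseudocount of 0.1 (adjusted p = 0.0817). Of the 24 tested transport genes outside the name rule, 4, 13 and 7 were lower in KD at 0, 8 and 24 h. In that list 1 gene was higher at 24 h. Of the proliferation list 3, 13 and 13 of 15 were lower in KD at these times, and their part in these differences was not tested. Over all genes 9.09%, 16.5% and 11.5% were lower.

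At 24 h the largest difference was that of Ipo7, at 97.0 and 95.1 FPKM in control and 79.1 and 43.6 in KD (-0.70, SE 0.22, adjusted p = 0.041). It rested on KD replicate 2, without which it was -0.28 (adjusted p = 0.0617). Xpo1 was likewise at -0.37 (adjusted p = 0.0406) and at -0.17 without that library (adjusted p = 0.14). Both calls were also lost with a replicate block (adjusted p = 0.0514 and 0.0541). Fitting the 4 libraries of the 24 h comparison by themselves called 0 members (limma, with 15 at an unadjusted p under 0.05), beside 14 in the fit of all 12 libraries.

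Whether the TGF-β response differed between KD and control cells was tested by the interaction. No member passed at 8 or 24 h (0 of 44, limma, with 11 and 3 members at an unadjusted p under 0.05), where 4.06% and 4.72% of all genes did, in either direction. The nearest at 8 h was Nup85, which was 0.42 lower than the sum of both effects (-0.42, SE 0.11, adjusted p = 0.0824). The 8 h result depended on the untreated control libraries, and which of the 2 stands apart cannot be told. The members' median interaction at 8 h was -0.09 with both, -0.02 without replicate 1 and -0.19 without replicate 2. Without it 9 members were called, all lower in KD after TGF-β: Kpnb1, Xpo5, Nup54, Nup85, Nup43, Nup107, Nup155, Nup160 and Nup205 (adjusted p 0.0104 to 0.0408). At 24 h 2 were called without that library (Nup54 and Nup85), 10 without KD replicate 1 and 1 without KD replicate 2 (Nup62). Of the proliferation list, 4 and 5 of 15 genes passed the interaction, all lower.

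Lamin B1 peaks were looked for from 2500 bp before each gene to its end, in mm9. A place in mm9 was found for 44 members, all but Ipo11, whose name 2 overlapping entries of the annotation share. The RefSeq promoter of Ipo11 (chr13:107726989-107727288) did overlap lamin B1 peaks at 0, 8 and 24 h (scores 63.59, 75.25 and 82.22), but the gene is not in the counts. At 0 h 15 members held a peak (33.4% of tested genes did), at 8 h 31 (56.4%) and at 24 h 22 (44.0%). There was 1 library per time, so these differences have no replicate check, and the whole lists differed in length, with 4645, 10484 and 7083 peaks. With each list shortened to its 4645 best peaks, 15, 17 and 16 members held one (34.1%, 38.6% and 36.4%, beside 33.4%, 32.5% and 32.8% of tested genes). The peaks lay at promoters, as all 15 at 0 h, 29 of 36 at 8 h and 21 of 22 at 24 h covered a transcription start site.

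**Figure D5:**
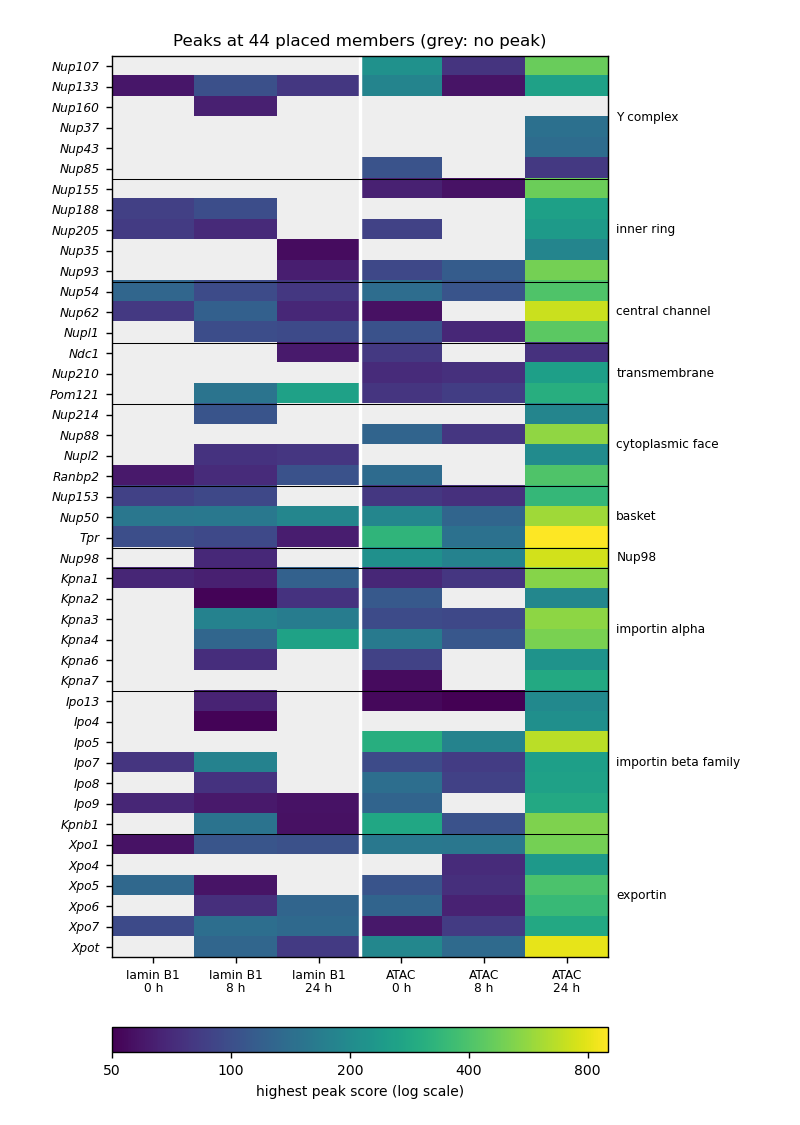
Highest peak score at each of the 44 placed members (rows, by role) in the lamin B1 ChIP-seq and ATAC-seq lists at 0, 8 and 24 h (columns; colour on a log scale, grey for no peak), with 1 library per column. The lamin B1 columns hold 15, 31 and 22 members with a peak and the ATAC columns 35, 27 and 43.

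A peak at all 3 times marked 10 of the 44 placed members (22.7%, as in 22.7% of tested genes): Nup50, Tpr, Nup54, Nup62, Ranbp2, Nup133, Kpna1, Ipo9, Xpo1 and Xpo7. Nup50 had the highest score at 0 h (157.84, chr15:84753063-84755067) and kept a peak over its start site at 8 h (158.26) and 24 h (187.54). Its promoter, printed above, held 5 motif copies, among them TGCGCATGC on both strands. Peaks present at 8 and 24 h but not at 0 h marked 9 members (20.5%, against 14.5% of tested genes), with Kpna2, Kpna3, Kpna4, Kpnb1 and Pom121 among them. The highest scores at 24 h belonged to Kpna4 (265.4, chr3:68930035-68931203) and Pom121 (261.44, chr5:135869611-135870728), which were at 130.0 and 152.22 at 8 h. Kpna4 was higher with TGF-β, while Pom121 was lower at 24 h and lower in KD cells, so the highest lamin B1 scores stood at genes that moved in opposite directions. Ipo7 had the highest score at 8 h (180.25, chr7:117161515-117162808) and no peak at 24 h.

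No peak at any time was found at 10 members (22.7%, against 34.0% of tested genes): Nup85, Nup43, Nup107, Nup37, Nup155, Nup210, Nup88, Ipo5, Xpo4 and Kpna7. Several of the genes with the largest declines are among them, and Ndc1 and Nup35 held a peak at 24 h only (61.8 and 55.28). Of 12 tested members without a lamin B1 peak at 8 h, 11 were lower at 24 h in parental cells (median -0.65), and of 31 with a peak 16 were (median -0.13). Over all tested genes the same shares were 38.1% (median -0.03) and 36.5% (median -0.005). Split by the peaks at 24 h, 13 of 21 members without and 14 of 22 with a peak were lower (medians -0.29 and -0.22). Split by those at 0 h, 17 of 28 without and 10 of 15 with a peak were lower (medians -0.30 and -0.18). The gap in counts was thus seen with the 8 h list only. The median was lower without a peak in each split, with the widest gap for the 8 h list. In the KD comparison at 8 h, 7 of 12 members without and 14 of 31 with an 8 h peak were lower (16.3% and 17.7% of tested genes), with medians of -0.26 and -0.21. These are descriptions of 1 ChIP-seq library.

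ATAC-seq peaks lay within 500 bp of a transcription start site at 35 members at 0 h (59.5% of tested genes), 27 at 8 h (48.8%) and 43 at 24 h (88.2%). The lists held 9782, 10340 and 33811 peaks. At equal length 35, 26 and 28 members held one, beside 59.5%, 47.1% and 54.5% of tested genes. Nup160 was the 1 placed member without such a peak at 24 h. Tpr had the highest score at 0 h (330.56) and at 24 h (895.27). Ndc1 was weak throughout, with 81.01 at 0 h, no peak at 8 h and 75.91 at 24 h, and Kpna4 was at 164.32 at 0 h, 110.05 at 8 h and 503.83 at 24 h. A start site of another protein-coding gene lay head to head within 1000 bp at 9 members (20.5%, against 17.2% of tested genes), as for Nup188 and Dolk at 43 bp, Nup98 and Pgap2 at 88 bp and Kpna7 and Arpc1a at 200 bp. A peak there cannot be assigned to either gene, the ATAC peaks at Kpna7 included.

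RefSeq promoter windows (GRCm38.p6, 250 bases before to 50 after the start) were found for 37 of 45 members, in 42 windows, each matching mm9 once. Their median GC content was 64.2%, beside 61.0% in genes passing the filter and 52.7% in all genes, with 28, 21 and 7 CG dinucleotides per window. CCAAT stood in 51.4% of the members (43.7% of genes passing the filter, 41.1% of all), GGGCGG in 67.6% (70.5% and 38.2%) and CCGGAAG, the ETS core, in 13.5% (21.3% and 9.93%). TGCGCATGC, the NRF1 sequence, stood in Nup50, Nup62 and Xpo5 (8.11%, against 3.58% and 1.72%), TGACGTCA in Nup133, Nup214 and Nupl2 (8.11%, against 3.72% and 2.03%) and the E2F-type TTTCGCGC in Ipo7 alone (2.7%, against 0.829% and 0.374%). Both strands were searched. Of the printed promoters, Ndc1 held 1 GGGCGG, Kpna2 and Kpna4 each held 3 copies of the CCAAT or the GC box, and Pom121 held none of the letters searched. Matches are descriptions of the window and not binding sites.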

How the data were processed

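The authors deposited FPKM values per gene and library for RNA-seq, and a score per peak from MACS for lamin B1 ChIP-seq and ATAC-seq, in mm9. The submitters' processing notes name Bowtie, TopHat and Cufflinks. Per the study's methods, parallel lamin B1 ChIPs were mixed into 1 library. The Hi-C samples were not used here. The 2 FPKM tables were normalized separately, so tests were made within a table. In each table all libraries entered 1 fit of limma 3.58.1 (R 4.3.3) with a mean-variance trend on log2(FPKM + 1), over genes with at least 1 FPKM in 2 libraries, with Benjamini-Hochberg adjustment over all of them. The 9 comparisons were each TGF-β time against 0 h in parental and control shRNA cells, KD against control at each time, and the interactions. Taken as named members in the reruns below were the 6 called members with the largest differences per comparison and the called members of a fixed list. Not all of them are given with their statistics above, least of all for the control shRNA cells. In simulated data the parental 8 h fit recovered 80% of differences of 0.5 and 94% of differences of 1, with 6 of 180 calls wrong. The KD 8 h fit recovered 69% and 96%, with 7 of 172 wrong. The simulation changed 100 genes per size, where 6161 genes were called in the parental 8 h data. Its noise was independent between genes and held no shifts shared within a library, so these rates may not carry over. Genes were placed in mm9 by name, and an overlap of 1 bp counted as a peak at a gene. Pseudocount, filter, normalization, block, library and peak-rule alternatives were run. Members and lists were chosen with earlier results of these data known. Scores and FPKM carry no read counts, so intervals from read counts were not computed.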

Additional observations from a re-analysis of the deposited data

How the results depend on the processing

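No called difference of a named member changed direction under any setting run: of 752 gene and setting pairs, 633 kept their call and 119 lost it. With 2 libraries per group, 1 library decides many calls. The leave-one-out counts stand without the share of all genes called in the same refit. Leaving out each library in turn gave 22 to 24 called members at 8 h and 26 to 29 at 24 h in parental cells, 18 to 27 and 31 to 35 in control shRNA cells, 2 to 16, 13 to 14 and 2 to 18 for KD against control at 0, 8 and 24 h, and 0 to 9 and 0 to 10 for the interactions. Fitting only the libraries compared called 2 members for KD at 0 h, 0 at 24 h and 1 for the 8 h interaction, and without the filter 8 were called for KD at 24 h. Shared replicate numbers did not pair the libraries throughout the shRNA table. Deviations of same-numbered libraries correlated from -0.135 to 0.368, and the highest value was that of control and KD cells at 24 h. A replicate block in the shRNA table called 24 and 38 members for TGF-β, 10, 22 and 11 for KD and 0 and 0 for the interactions. For KD at 24 h, 14 were called without the block. The parental columns carry no numbers. Among peaks at or above the median score, lamin B1 peaks stood at 17 members at 8 h and 10 at 24 h. These were 38.6% and 22.7% of placed members, beside 35.6% and 26.2% of tested genes. ATAC peaks of that kind stood at 23 at 0 h (37.8% of tested genes). At equal list length lamin B1 peaks stood at 17 at 8 h (32.5% of tested genes) and ATAC peaks at 28 at 24 h (54.5%). Within 2500 bp of a start site ATAC peaks stood at 44 at 24 h (90.3%). The causes were not tested, and the depth behind FPKM and peak scores is unknown.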
